A study of Mus musculus with 8 samples.

Results

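The 6 genes described here, Kazald1, R3hdml, Spock2, Capn6, Tmem100 and Ajap1, were chosen by their measured log ratios, which on each of 4 knockout arrays lay below those on all 4 wildtype arrays. They are 6 of 13982 named genes tested, and they are read by 7 of the 55681 distinct probes, since Ajap1 has 2 probes and each other gene has 1. The samples were kidney pairs from C57BL/6 mouse embryos at embryonic day 16.5. The 4 controls (WT1 to WT4) were wildtype, and in the other 4 samples (KO1 to KO4) Dot1, taken here as Dot1l, a histone H3 methyltransferase, was conditionally deleted in nephron progenitor cells that express Six2. The labels give the Six2-positive progenitors as the targeted cells and C57BL/6 as the strain, and do not name the alleles, the Cre line or the genotype of the controls beyond wildtype. Kidney cells of a KO sample that neither are such progenitors nor descend from them were not targeted. What is measured is the RNA of the whole organ. Each array was hybridised with 1 sample in red (Cy5) and with the RNA of WT1 in green (Cy3) as a common reference, so each value below is a log2 ratio of red over green. WT1 was therefore read against itself, and no array had the dyes swapped.

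Nephron progenitors form a cap of mesenchyme around each tip of the branching ureteric bud, where they either renew or condense into the epithelium of a new nephron. Six2 and Cited1 mark the self-renewing cells, and signals such as Wnt4, Fgf8 and Notch accompany their commitment. Kazald1 codes for a secreted protein related to the insulin-like growth factor binding proteins. R3hdml codes for a secreted protein of the CAP superfamily (cysteine-rich secretory proteins, antigen 5 and pathogenesis-related proteins). Spock2 codes for testican-2, an extracellular proteoglycan of the SPARC family. Capn6 codes for a calpain that lacks an active protease site and binds microtubules. Tmem100 codes for a small transmembrane protein that is known as a target of BMP receptor signalling through ALK1 in the endothelium. Ajap1 codes for a transmembrane protein associated with adherens junctions. These files do not say which kidney cells express them.

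The start regions of the genes are shown because sequence played no part in their choice. RefSeq's promoter table (build GRCm38.p6) holds 5 of the 6 genes with 6 start sites, 2 of them for Kazald1. Each sequence covers the 250 bases before the start, 5′ to 3′ on the strand of the gene. Capitals mark 3 core promoter motifs on either strand, TATANAA (the TATA box), CCAAT (the CCAAT box) and GGGCGG (the GC box). The 4 printed are those of the first Kazald1 start (chr19:45074991-45075240, plus strand), R3hdml (chr2:163492068-163492317, plus strand), Capn6 (chrX:143827413-143827662, minus strand) and Ajap1 (chr4:153482831-153483080, minus strand), which between them span the range from CpG-poor to CpG-rich.
Kazald1: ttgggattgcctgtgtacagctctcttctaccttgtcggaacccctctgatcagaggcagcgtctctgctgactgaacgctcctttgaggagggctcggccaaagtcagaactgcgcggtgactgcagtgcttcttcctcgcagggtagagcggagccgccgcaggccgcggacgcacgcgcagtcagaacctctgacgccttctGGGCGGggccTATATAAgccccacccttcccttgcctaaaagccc
R3hdml: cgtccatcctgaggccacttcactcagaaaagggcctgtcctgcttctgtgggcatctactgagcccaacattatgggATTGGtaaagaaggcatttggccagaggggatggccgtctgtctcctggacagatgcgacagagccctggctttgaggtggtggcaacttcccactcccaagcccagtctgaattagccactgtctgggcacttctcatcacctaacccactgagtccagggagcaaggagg
Capn6: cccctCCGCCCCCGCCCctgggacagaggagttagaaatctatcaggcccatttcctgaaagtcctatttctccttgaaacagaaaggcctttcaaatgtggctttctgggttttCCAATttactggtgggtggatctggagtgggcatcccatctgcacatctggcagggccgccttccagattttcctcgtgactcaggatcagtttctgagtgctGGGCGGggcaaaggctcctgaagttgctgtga
Ajap1: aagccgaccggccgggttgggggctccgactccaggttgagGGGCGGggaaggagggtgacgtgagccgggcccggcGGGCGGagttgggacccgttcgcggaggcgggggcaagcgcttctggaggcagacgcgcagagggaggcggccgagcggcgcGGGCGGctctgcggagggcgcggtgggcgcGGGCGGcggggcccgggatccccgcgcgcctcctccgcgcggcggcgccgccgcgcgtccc

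These start regions had little in common. Ajap1 had 43 CpG dinucleotides and a GC content of 81.2%, at percentile 99.3 of the CpG counts of 32851 RefSeq promoters. R3hdml had 3 CpG dinucleotides, at percentile 29.0, and the median promoter had 6. Kazald1 had 17 at its first start and 12 at its second, Spock2 had 7 and Capn6 had 5. A TATA box was found in 1 of the 6 regions, at the first start of Kazald1, where TATATAA begins 35 bases before the start, and 10.4% of all promoters hold this motif. The GC box was found in 4 of 6, against 32.7% of all promoters, and the CCAAT box in 2 of 6 (R3hdml and Capn6), against 33.8%. The motif TGATTNAT, bound by HOX and PBX proteins, was found in 0 of 6 and in 2.82% of all promoters. A match or its absence describes these letters in this window only, and both strands were searched.

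Before the values of the 6 genes, 2 arrays need a word. The red median of the negative-control spots was 1361 units on WT1 and 478.25 on KO1, and 58 to 61 on the other 6 arrays. The green channel, which holds the same RNA on every array, had a correlation with the other arrays of r = 0.562 on WT1 and 0.904 on KO1 over all probes, and of 0.996 to 0.997 on the rest. The differences of the 6 genes and the counts of called list genes are therefore given with all 8 arrays and without WT1 and KO1. By the Y-linked gene Ddx3y, all 4 KO samples and WT2 were male, and WT1, WT3 and WT4 were female. In a fit with a term for sex, the group difference is therefore the KO mean minus WT2 alone. All WT arrays lay in the first row of the slide and all KO arrays in the second, so row and group cannot be told apart. For Dot1l itself the groups differed by 0.03 ± 0.08 (SE; limma adjusted p = 0.924). The position of its probe relative to the deleted exons is not known here, so it does not check the labels. Markers of the organ were present, with 23 of 24 progenitor, 10 of 11 podocyte, 12 of 12 proximal tubule and 10 of 10 ureteric marker genes kept by the filter on dim probes.

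All 7 probes were well above background in both colours on all 8 arrays. Between groups, the mean difference of the 6 genes (KO minus WT) ran from -1.11 for Kazald1 to -0.55 for Tmem100, with a median of -0.98, and the median over all 13982 genes was 0.03. Since these differences chose the genes, they are given as a description with no test. All 4 KO values lay below all 4 WT values for 6 of 6 genes, which the choice fixes, and 344 of all 13982 genes (2.46%) showed the same order. The gap between the lowest WT and the highest KO value ran from 0.20 for Tmem100, the gene closest to an overlap, to 0.91 for R3hdml. In whole kidneys, fewer cells of a type and less RNA per cell cannot be told apart.

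**Figure D1:**
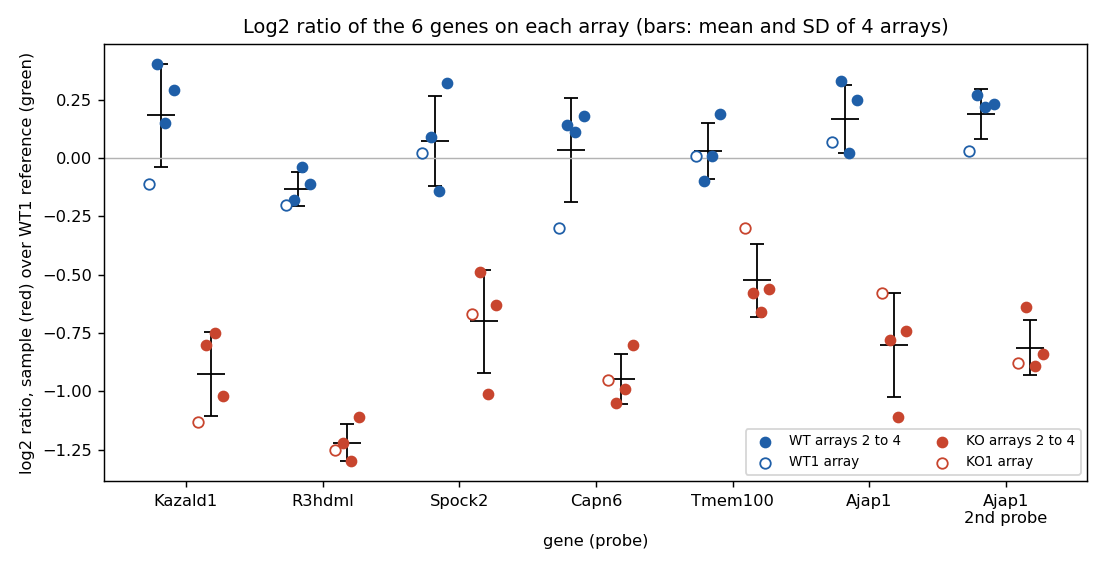
Log2 ratio of sample (red) over WT1 reference (green) on each array for the 7 probes of the 6 genes, blue for WT, red for KO and open circles for WT1 and KO1. The horizontal bars are the mean and SD of 4 arrays, and the gap between the groups is smallest for Tmem100 (0.20) and largest for R3hdml (0.91).

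Of the 3 genes that code for secreted proteins, Kazald1 had the largest difference. Its log2 ratios were -0.11, 0.40, 0.15 and 0.29 on WT1 to WT4 and -1.13, -0.80, -0.75 and -1.02 on KO1 to KO4. WT1 was the lowest of the WT arrays, and it still lay 0.63 above KO3, the highest of the KO arrays. The WT mean was 0.18 ± 0.22 and the KO mean -0.92 ± 0.18 (SD, n = 4 per group), a difference of -1.11 ± 0.12 (SE), or 46.4% of the WT level. Ordered by the size of a negative difference, Kazald1 stood at rank 6 of 13982 genes and R3hdml at rank 8. The difference was -1.14 without WT1 and KO1. The gap, which leaving out arrays can only keep or widen, was then 0.90. Against WT2, the 1 male WT sample, the KO mean was lower by more (-1.32), and WT2 itself lay 0.29 above the mean of the other WT arrays.

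R3hdml had nearly the same difference with far less spread. Its log2 ratios were -0.20, -0.18, -0.04 and -0.11 on WT1 to WT4 and -1.25, -1.22, -1.30 and -1.11 on KO1 to KO4. Both groups were tight, and the 0.91 between the lowest WT and the highest KO array was the widest gap of the 6 genes. The WT mean was -0.13 ± 0.08 and the KO mean -1.22 ± 0.08 (SD, n = 4 per group), a difference of -1.09 ± 0.08 (SE), or 47% of the WT level. Its pooled SD within groups, 0.08, stood at percentile 7.19 of all genes, whose median was 0.14. For Kazald1 the pooled SD was 0.20, at percentile 81.3. Leaving out WT1 and KO1 gave -1.10 for R3hdml, and the difference from WT2 was -1.04.

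Spock2 differed less than these genes and varied about as much as Kazald1. Its log2 ratios were 0.02, 0.09, -0.14 and 0.32 on WT1 to WT4 and -0.67, -0.49, -1.01 and -0.63 on KO1 to KO4. Within the WT group WT4 was high and WT3 low, and within the KO group KO3 was low. The WT mean was 0.07 ± 0.19 and the KO mean -0.70 ± 0.22 (SD, n = 4 per group), a difference of -0.78 ± 0.13 (SE), or 58.4% of the WT level. Its pooled SD was 0.21 (percentile 82.4), and its gap between groups was 0.35. Without WT1 and KO1 the difference was -0.80, and against WT2 it was -0.79.

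Capn6, the microtubule-binding calpain, lies on the X chromosome. Its log2 ratios were -0.30, 0.14, 0.11 and 0.18 on WT1 to WT4 and -0.95, -1.05, -0.99 and -0.80 on KO1 to KO4. WT1 stood apart from the other WT arrays, and the KO arrays lay close together. The WT1 array holds the same RNA in both colours, so its -0.30 is no difference between RNA samples. The WT mean was 0.03 ± 0.22 and the KO mean -0.95 ± 0.10 (SD, n = 4 per group), a difference of -0.98 ± 0.11 (SE), or 50.7% of the WT level. Leaving out WT1 and KO1 moved the difference to -1.09 and the gap between groups from 0.50 to 0.91. Against WT2 the difference was also -1.09. WT2 lay 0.15 above the mean of the other 3 WT arrays, all of female samples, a mean that the low WT1 (-0.30) pulls down. At 0.14, WT2 lay between WT3 (0.11) and WT4 (0.18).

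Of the membrane proteins, Tmem100 had the smallest difference of all 6 genes. Its log2 ratios were 0.01, -0.10, 0.01 and 0.19 on WT1 to WT4 and -0.30, -0.58, -0.66 and -0.56 on KO1 to KO4. KO1 was the highest KO array and WT2 the lowest WT array, and they lay 0.20 apart. The WT mean was 0.03 ± 0.12 and the KO mean -0.53 ± 0.15 (SD, n = 4 per group), a difference of -0.55 ± 0.10 (SE), or 68.2% of the WT level. Without WT1 and KO1 the difference was -0.63 and the gap 0.45. Against WT2, which lay 0.18 lower than the mean of the other WT arrays (-0.18 as a log2 difference), the KO mean was lower by less (-0.42). The red signal of its probe was 216 to 588.5 units on the 6 arrays other than WT1 and KO1.

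Ajap1 was read by 2 probes. The first, used for the gene, gave log2 ratios of 0.07, 0.33, 0.02 and 0.25 on WT1 to WT4 and of -0.58, -0.78, -1.11 and -0.74 on KO1 to KO4. The second gave 0.03, 0.27, 0.22 and 0.23 on WT1 to WT4 and -0.88, -0.64, -0.89 and -0.84 on KO1 to KO4. On neither probe did a KO array reach the WT range. The difference was -0.97 ± 0.12 (SE, n = 4 per group) on the first probe, or 51% of the WT level, and -1.0 ± 0.09 on the second, or 50%. On single arrays the first probe minus the second ran from -0.22 on KO3 to 0.30 on KO1, and it was 0.02 to 0.05 on WT1, WT2 and WT4 and -0.20 on WT3. The 2 probes thus disagreed on single KO arrays by up to 0.30 while their group differences lay within 1 SE of each other. Without WT1 and KO1 the first probe gave -1.08 and the second -1.03. Against WT2 they gave -1.13 and -1.08.

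Kazald1 (-1.11 ± 0.12, SE), R3hdml (-1.09 ± 0.08), Capn6 (-0.98 ± 0.11) and Ajap1 (-0.97 ± 0.12) came first in the order of the differences, and their ranges of 1 SE overlapped. Spock2 (-0.78 ± 0.13) followed, with a range of 1 SE that overlapped those of Capn6 and Ajap1, and Tmem100 (-0.55 ± 0.10) came last. These errors come from the same 8 arrays and are not independent. Kazald1 and R3hdml were the 2 genes more than 2-fold lower, by 2.16-fold and 2.13-fold.

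The signals behind the ratios can be read beside each other, since the green channel holds the same RNA on every array. For R3hdml the green signal was 1586 to 1636 units on WT2 to WT4 and 1406 to 1522 on KO2 to KO4, and the red signal 3028, 3366 and 4988 on WT2 to WT4 against 1638, 941 and 2088 on KO2 to KO4. Kazald1 had a green signal of 665.5 to 744 units on WT2 to WT4 and of 581.5 to 611 on KO2 to KO4. Its red signal was 2013, 1738 and 2660 on the former and 925, 596 and 815.5 on the latter. For both genes the red signal separated the groups on these 6 arrays, and both were chosen by ratios that hold this signal. Their green signal, that of the shared reference, was also lower on the KO than on the WT arrays, by a smaller factor. Over the median of the negative controls, the red signal of Capn6 was 82.7, 83.4 and 120 times as high on WT2 to WT4 and 36.3, 23.3 and 47.6 times on KO2 to KO4. On WT1 and KO1 its red signal was 6.47 and 7.08 times the median of the controls. For Tmem100 the same red ratio was 5.38 to 9.97 on WT2 to WT4 and 3.72 to 5.65 on KO2 to KO4, and 2.48 on KO1. Its red signal thus overlapped between the groups, with 328 units on WT2 and 333.5 on KO4.

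**Figure D2:**
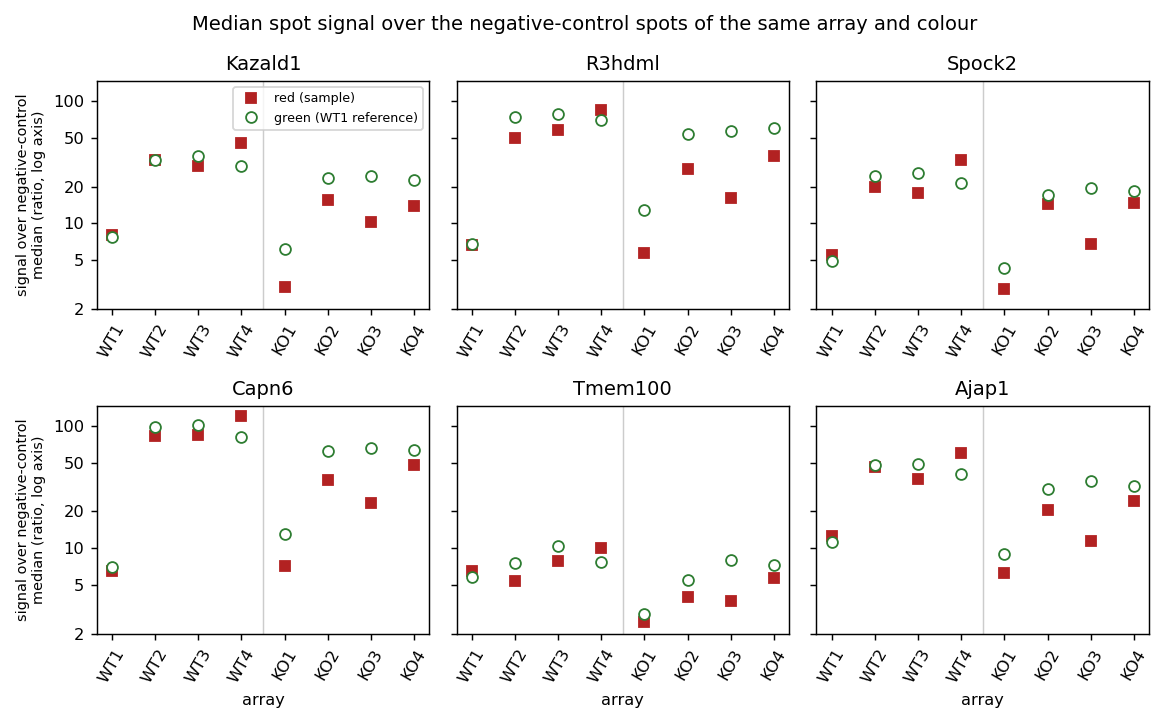
Median spot signal over the median of the negative-control spots of the same array and colour (log axis), for each of the 6 genes on each array, squares for the sample (red) and circles for the WT1 reference (green). On KO2 to KO4 the squares lie below the circles in every panel. They also do on WT3 in every panel and on WT2 in all but that of Kazald1, so this order does not set the groups apart. On WT4 the squares lie above the circles. For Capn6 the squares of WT1 (6.47) and KO1 (7.08) lie below those of the other 6 arrays.

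The place of WT1 depended on the scaling. With median centring in place of loess, which does not correct for intensity, WT1 gave -0.24 for Capn6 while WT2 to WT4 gave 0.84 to 1.52 and the KO arrays -0.69 to 0.35. In that setting WT1 lay inside the KO range for all 6 genes, so 0 of 6 kept their groups apart. Without WT1 and KO1 6 of 6 did under median centring. They did under loess too, where the choice fixes this order, which 7.85% of all genes showed without these 2 arrays. With the red channel alone 3 of 6 did, and WT1 was the lowest array for Capn6 (9.55, other WT arrays 12.54 to 12.63), R3hdml (9.73, others 11.96 to 12.11) and Spock2 (8.73, others 10.57 to 10.95). The differences of these 3 genes were then -0.35, -0.38 and -0.35, where the median of all genes was 0.22. On the remaining 6 arrays the red channel alone put 6 of 6 apart, with -0.94 for R3hdml. The share of all genes with this order was not counted under median centring or in the red channel. The genes were chosen for this order under loess on the same arrays, so these counts are no separate check. The sign of the difference was negative for all 6 genes in all 21 alternatives. Where arrays were only left out under loess, the choice of the genes fixes this sign, so there it is no check. The choice also fixes it with a term for sex, which compares the KO mean with WT2. Aquantile scaling between arrays, a block for the replicate number and the other filters on dim probes returned the reported differences. So did the mean of all kept probes for the genes with 1 probe. These settings are no check of the sign either.

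**Figure D3:**
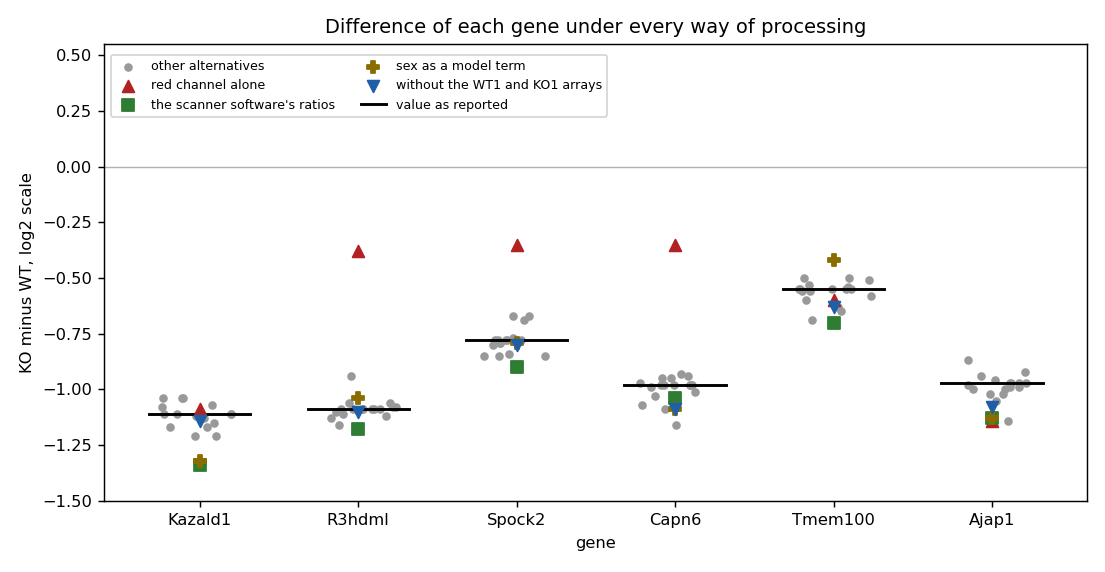
Difference between the groups (KO minus WT, log2 scale) of each of the 6 genes under every alternative, with the reported value as a black line. All points lie below 0, which the choice of the genes fixes where arrays were only left out and with sex as a model term. Settings that returned the reported value are no check of its sign. Those nearest to 0 are the red channel alone for R3hdml (-0.38), Spock2 (-0.35) and Capn6 (-0.35).

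Within the groups the 6 genes did not move as one. After the group means were taken off, the deviations on the 8 arrays correlated best between Spock2 and Ajap1 (r = 0.73), which shared a low KO3, and then between R3hdml and Capn6 (0.60). Tmem100 and Ajap1 gave 0.53 and Kazald1 and Capn6 0.49. The lowest was -0.47, between Kazald1 and Tmem100. The points of these correlations share the arrays and the reference, and they are given as a description.

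Over all 8 arrays the genes most like R3hdml were Cited1 (r = 0.993), Traf1 (0.983) and Camkv (0.982). Cited1, a transcriptional coregulator that marks the renewing progenitors, differed by -2.72 between the groups, and this difference enters the correlation over all arrays. Within groups its r with R3hdml was 0.43, and that of Traf1, an adaptor of TNF receptor signalling, was -0.19. Ajap1 was most like Meox2 (0.985), a homeobox gene, Elavl4 (0.985), a neuronal RNA-binding protein gene, and Dusp9 (0.979), a phosphatase of MAP kinases. Within groups their r with Ajap1 was 0.85, 0.84 and 0.79.

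Kazald1 was most like Hoxa11os (0.983), the antisense transcript of Hoxa11, Bmp2 (0.982), a secreted BMP ligand, and Rnaseh2a (0.974), a subunit of ribonuclease H2. Within groups they gave 0.90, 0.84 and 0.87. The genes most like Capn6 were Gm266 (0.978), Dock5 (0.970) and Pax2 (0.970), and Pax2, a transcription factor of the kidney lineage, differed by -0.17 between groups and gave 0.93 within them. For Spock2 they were Tsr1, Mtfp1 and Shmt1 (each 0.977), and for Tmem100 Rnf113a1 (0.983), Pigh (0.977) and Dll1 (0.977), a Notch ligand that differed by -0.60. These genes were picked as the highest of 13982, over 8 arrays that share 1 reference, and the pick also required an r over 0.9 without WT1 and KO1. The values within groups come from the same arrays as the pick, so they are no separate check of the likeness.

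Families and partners of each protein were read from lists by family. Of 94 listed genes 67 were tested, and limma (adjusted p under 0.05 over all genes) called 3 higher and 1 lower, where 2.15% of all genes were called (1.61% higher, 0.544% lower). Their median difference was 0.09, against 0.03 for all genes. Of the same genes 3 were called without WT1 and KO1, where 1.76% of all genes were called (1.26% higher, 0.501% lower). With the replicate number as a block 6 were called, where 3.98% of all genes were called (3.18% higher, 0.795% lower). With the scanner software's own ratios, or with sex as a model term, 0 of the 67 were called.

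**Figure D4:**
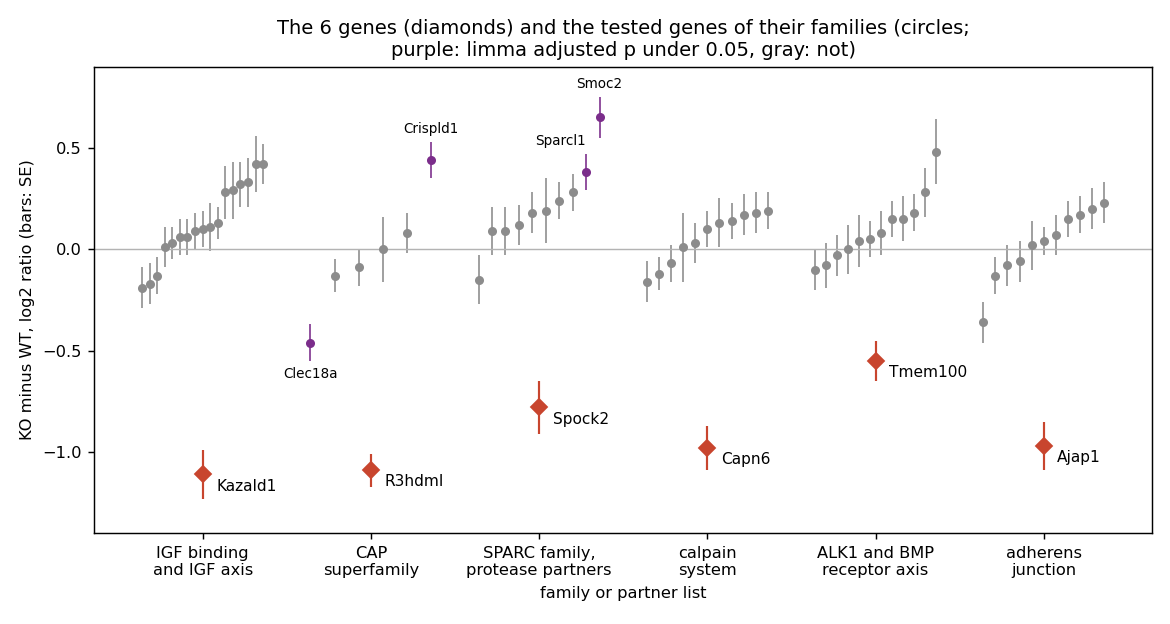
Difference between groups (KO minus WT, log2 ratio, bars SE) for the 6 genes (diamonds) and for the 67 tested genes of their families or partner lists (circles, purple where the limma adjusted p is under 0.05). The purple genes are Smoc2, Sparcl1, Crispld1 and Clec18a. No circle lies as low as the diamond of its own list, but the 6 genes were chosen for low KO values, so this is no result about the families.

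For Kazald1, 17 of 23 genes of the insulin-like growth factor binding proteins and their axis were tested, and limma called 0, with 4 higher and 0 lower at an unadjusted p under 0.05. The smallest p-values were those of Igfbp6, a binding protein for IGF2 (0.42 ± 0.10, SE, n = 4 per group; limma adjusted p = 0.0614), and Htra1, a secreted serine protease (0.42 ± 0.14; adjusted p = 0.153). With the block Igfbp6 was called (adjusted p = 0.0247), and without WT1 and KO1 0 of this list were called. Igfbp7 and 5 further genes were too dim to be tested.

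For R3hdml, 6 of 13 CAP superfamily genes were tested. Clec18a, a lectin with a CAP domain, was lower: its log2 ratios were -0.23, -0.03, -0.12 and -0.29 on WT1 to WT4 and -0.73, -0.61, -0.50 and -0.68 on KO1 to KO4. The KO range lay below the WT range, by -0.46 ± 0.09 between the means (SE; limma adjusted p = 0.0214). Its second probe gave -0.44. Crispld1, a secreted CAP protein, was higher by 0.44 ± 0.09 (adjusted p = 0.0346, and 0.0335 without WT1 and KO1). Both calls depended on single arrays. That of Clec18a was lost without WT1 and KO1 together (adjusted p = 0.0654) and without any 1 of WT2, WT3, KO2 or KO4. That of Crispld1 was lost without any 1 of WT2, WT3, WT4, KO2, KO3 or KO4, and its difference was 1.69 with the scanner software's ratios.

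For Spock2, 10 of 13 genes of the SPARC family and its protease partners were tested. Smoc2, a SPARC-related matrix protein, was higher: its log2 ratios were -0.49, -0.42, -0.22 and -0.60 on WT1 to WT4 and 0.18, 0.12, 0.42 and 0.14 on KO1 to KO4. The KO values lay above all WT values, an order that 6.82% of all genes showed, and the means differed by 0.65 ± 0.10 (SE; limma adjusted p = 0.00854). Sparcl1 was higher by 0.38 ± 0.09 (adjusted p = 0.0462). Both were called without WT1 and KO1 as well (adjusted p = 0.0420 and 0.0419). Smoc2 was also called without any 1 array, and Sparcl1 lost its call without any 1 array other than WT1. Spock2 thus differed in the opposite direction to the 2 genes of its family that passed. Its own direction was fixed by the choice of the genes, so this is no result about the family. Spock1 and Spock3, and the metalloprotease gene Mmp16, were too dim to be tested.

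For Capn6, 11 of 15 calpain system genes were tested and limma called 0, with 0 also at an unadjusted p under 0.05. Those with the smallest p-values were Capn2, a ubiquitous calpain (0.19 ± 0.09, SE, n = 4 per group; limma adjusted p = 0.371), and Capn11 (0.18 ± 0.10; adjusted p = 0.438). Tmem100 belongs with ALK1 and its BMP receptor partners, of which 12 of 17 were tested and limma called 0 (2 higher and 0 lower at an unadjusted p under 0.05). The smallest p-values there were those of Id2 (0.48 ± 0.16; adjusted p = 0.157) and Id1 (0.28 ± 0.12; adjusted p = 0.290), both targets of BMP signalling. With the replicate block Id2 was called higher (adjusted p = 0.0377). For Ajap1, 11 of 13 adherens junction genes were tested and limma called 0 (1 higher and 1 lower at an unadjusted p under 0.05). Cdh2, the gene of N-cadherin, had 4 KO values below its WT values (-0.36 ± 0.10; adjusted p = 0.0920), and its second probe gave -0.18. Nectin1 gave 0.23 ± 0.10 (adjusted p = 0.329). In the lists of Capn6, Tmem100 and Ajap1 limma also called 0 genes without WT1 and KO1.

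Markers of the progenitors were read beside the 6 genes, and their list, which holds none of the 6, includes Cited1, Traf1 and Meox2, named above. All marker lists were chosen with earlier results of these data known. Of 23 progenitor genes tested, limma called 7 lower and 0 higher, where 0.544% of all genes were called lower and 1.61% higher. Their median was -0.23, and the mean over the list ran from -0.08 to 0.16 on the WT arrays and from -0.52 to -0.33 on the KO arrays. At an unadjusted limma p under 0.05, 11 of these genes were lower and 1 higher, and 14.5% of all genes passed. Cited1 (-2.72 ± 0.10, SE, n = 4 per group; limma adjusted p = 2.79e-08) and Traf1 (-1.52; adjusted p = 4.1e-06) led the list. Six2, which also marks the renewing cells, was not called (-0.21 ± 0.12; limma adjusted p = 0.439). Of 13 genes of committing cells limma called 6 lower and 0 higher, with a median of -0.37. With WT1 and KO1 left out, 6 progenitor and 7 committing genes were lower, and with the replicate block 9 and 6. Of all 111 marker genes tested 26 were called, and 0 under median centring, 1 in the red channel alone and 5 with sex as a model term.

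Most other cell types gave medians above 0. For the counts below, limma called 1.61% of all genes higher, and 14.5% of all genes had an unadjusted limma p under 0.05. Of 12 stromal genes 5 were higher (median 0.45), and of 11 macrophage genes 5 were higher (median 0.37), with 3 each without WT1 and KO1 and 7 and 6 with the replicate block. Limma called 0 of 12 proximal tubule genes (median 0.33; 6 higher and 0 lower at an unadjusted p under 0.05), 0 of 10 podocyte genes (median 0; 2 higher and 1 lower) and 1 of 10 ureteric genes, which was higher (median 0.25). With the replicate block 3 proximal tubule genes were higher, the endocytic adaptor gene Dab2 (adjusted p = 0.0205) and the transporter genes Slc27a2 (0.0138) and Slc22a6 (0.0413). On the 6 arrays without WT1 and KO1 these 3 lists had 0, 0 and 1 called genes, and the proximal tubule median was 0.50. For Tmem100, the endothelial list bears most closely: 1 of its 14 genes was called, Sox17, which was higher, the median was 0.09, and the list mean ran from -0.16 to -0.07 on the WT arrays and from -0.11 to 0.12 on the KO arrays. The call of Sox17 was lost without WT1 and KO1 (adjusted p = 0.135), which left 0 endothelial genes called. With the replicate block Sox17 and Cdh5 were called (adjusted p = 0.0283 and 0.0353). Elavl4 was the 1 called gene of 6 tested in the neural and adrenal list (-0.97 ± 0.11; limma adjusted p = 0.00156, and 0.00317 without WT1 and KO1; second probe -0.30), and with the replicate block Stmn2 was called too, as higher (adjusted p = 0.0279). The part of these shifts in cell markers in the lower values of the 6 genes was not tested.

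The chromosomal neighbours were read next, since position had no part in the choice. Of 36 tested neighbours, up to 3 on each side of each gene in the RefSeq order, limma called 0 lower and 1 higher, and their differences ran from -0.42 to 0.42 with a median of 0.06. At an unadjusted p under 0.05, 2 were lower and 2 higher, and 14.5% of all genes passed. The 1 called was Ddit4, a stress-induced inhibitor of mTOR signalling near Spock2 (0.42 ± 0.09, SE, n = 4 per group; limma adjusted p = 0.0268, and 0.0612 without WT1 and KO1). Its call was also lost without any 1 of WT1, WT2, WT3, KO2, KO3 or KO4. Directly beside Capn6, Dcx, a microtubule-binding protein of neurons, gave -0.42 ± 0.13 (adjusted p = 0.131), with a WT4 value of 0.59 where WT1 to WT3 gave 0.02 to 0.05, and Pak3 on its other side gave 0.18. The transcript Hnf4aos, which overlaps the R3hdml locus, differed by 0.03, and Hnf4a, a proximal tubule transcription factor gene just beyond it, by 0.11 ± 0.11 (adjusted p = 0.716). Ascc1 beside Spock2 gave 0.15 and Pctp beside Tmem100 0.16.

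**Figure D5:**
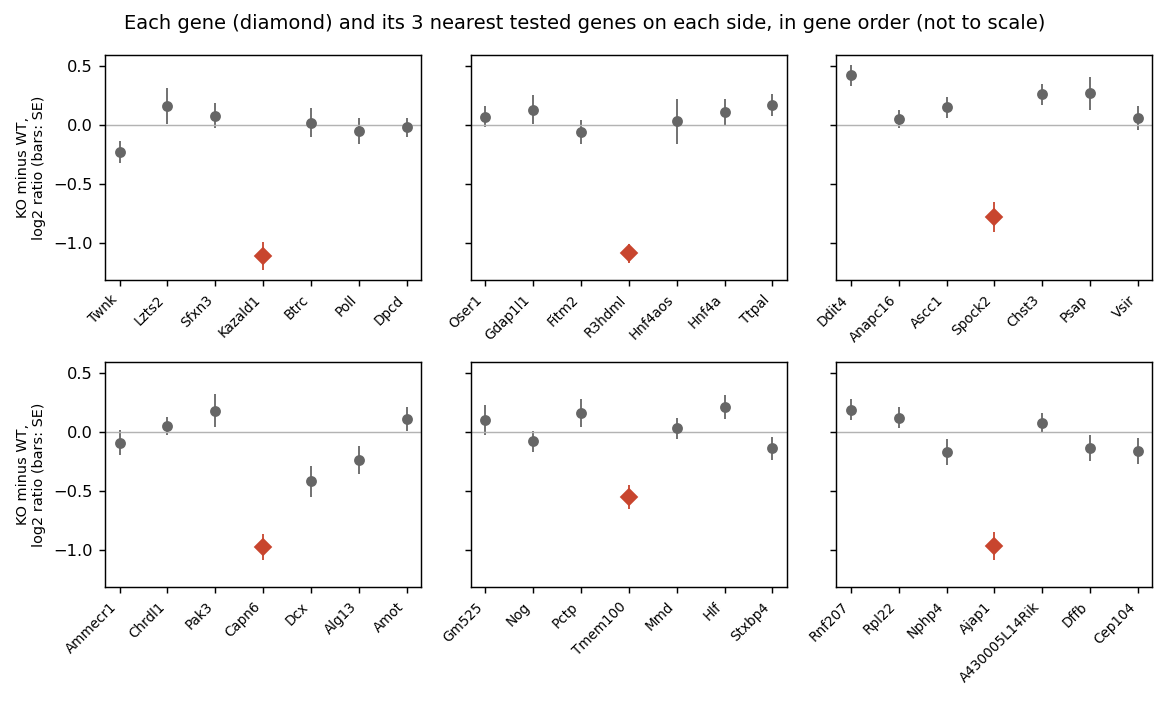
Difference between groups (KO minus WT, log2 ratio, bars SE) for each of the 6 genes (diamonds) and its 3 nearest tested genes on each side, in gene order and not to scale. The neighbours run from -0.42 (Dcx) to 0.42 (Ddit4). Each diamond lies lower than every neighbour in its panel, but the 6 genes were chosen for low KO values, so this is no result about the locus.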

How the data were processed

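The deposited values are scanner intensities and flags of 8 two-colour arrays from Agilent Feature Extraction 10.7.3.1, per the submitters' processing notes and the file headers. The software's log10 ratio is also deposited, per the file headers, and served as an alternative. The authors' value table holds the same ratio on all 59305 matched spots of each array (100% within 1%), with column medians of 0, so its scale, centring and direction are those of the software. The flags used, deposited as 0 or 1, mark spots well above background, outliers and saturation. Of all spot readings, 0.372% were left out as outliers, and 0 were saturated. Median signals were corrected with limma 3.58.1 (normexp, offset 50) and normalised by loess within each array, control spots at weight 0. Probes were kept if well above background in red on at least 4 of 8 arrays, and the brightest kept probe stood for a gene (3523 genes had several). Symbols came from RefSeq through the accession of each probe, for 27509 of 55681 probes. Differences came from limma's lmFit and eBayes, adjusted by Benjamini-Hochberg, with a threshold of 0.05; this fit, without the block, was tested on simulated data. The number of arrays limits the precision.

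Deviations from the group means of same-numbered WT and KO samples correlated at 0.14, 0.37, 0.26 and 0.30, so the replicate numbers, which are also the slide columns, were taken to pair the samples, and a fit with the replicate block was run. It called 555 genes against 301. The 6 genes and all lists were chosen with earlier results of these data known. Named were all 6 genes and every probe of them, the called genes of each family list or else the 2 of smallest p, adjacent neighbours, the 3 most alike genes each with r over 0.9 without WT1 and KO1, and up to 3 called markers a list. Ddit4, Hnf4a, Six2, Cdh5, Stmn2, Dab2, Slc27a2, Slc22a6 and the sex-linked genes were named after their values were seen. Marker lists also covered neural and adrenal cells. Alternatives covered background, scaling, filter, offset, probe choice, block, sex and each array left out. Leaving out WT1 and KO1 under median centring or in the red channel alone was added after seeing the data. The deposited columns not listed here were not used.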

Additional observations from a re-analysis of the deposited data

Results flagged for a closer look

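Among 200 groups of 4 arrays (WT or KO) of the probes of the 6 genes, their neighbours, the genes most like them, and the called or 2 leading genes of each list, 12 held a value beyond Dixon's critical value, and chance gives about 1 in 20. Of the 6 genes it was Capn6, with -0.30 on WT1 against 0.11 to 0.18 on the other WT arrays. WT1 was read against itself, so its value is no difference between RNA samples. The other 11 were in genes beside the 6 genes. In the WT group these were Anapc16 on WT1 (-0.04, others 0.15 to 0.17), Dcx on WT4 (0.59, others 0.02 to 0.05), Fitm2 on WT4 (0.26, others -0.04 to 0.01) and Lhx1 on WT2 (0.78, others 0.12 to 0.23). In the KO group KO3 was the separate array for A430005L14Rik (-0.20, others -0.06 to -0.05), Nectin1 (-0.16, others 0.10 to 0.14), Rpl22 (0.14, others -0.08 to -0.05) and Shmt1 (-1.11, others -0.70 to -0.67). KO1 was separate for Rnaseh2a (-0.25, others -0.14 to -0.12) and Sparcl1 (-0.13, others -0.03 to -0.01), and KO4 for Lhx1 (-0.85, others -0.47 to -0.40). All are log2 ratios over the WT1 reference.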

How the results depend on the processing

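The difference of each of the 6 genes kept its negative sign in all 21 alternatives. The choice of the genes fixes this sign where arrays were only left out and with a term for sex. Aquantile, the replicate block and the other filters on dim probes gave the same differences as reported, so they are no check of it. Leaving out each array in turn gave -1.21 to -1.04 for Kazald1, -1.12 to -1.06 for R3hdml, -0.85 to -0.67 for Spock2, -1.09 to -0.93 for Capn6, -0.63 to -0.50 for Tmem100 and -1.05 to -0.87 for Ajap1. All 6 kept their groups apart each time, which the choice of the genes fixes. Values that moved by more than the spread between replicates were as follows. The scanner software's ratios gave -1.34 for Kazald1, -1.18 for R3hdml and -0.70 for Tmem100, sex as a model term gave -1.32 for Kazald1, the red channel alone gave -0.35 for Capn6, -0.38 for R3hdml and -0.35 for Spock2, and, without WT1 and KO1, the red channel alone gave -0.94 for R3hdml and median centring -1.16 for Capn6 and -0.69 for Tmem100. Of the 6 genes 0 kept their groups apart under median centring and 3 in the red channel alone. The share of all genes that did so was not counted in these settings.

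Of all genes, 301 were called, 124 (50 lower, against 76) with the software's ratios, 0 under median centring (178 at an unadjusted p under 0.05), 1 in the red channel alone (110), without WT1 and KO1 146 in the red channel and 10 under median centring, 555 with the replicate block, 12 with a term for sex, and 83 (without KO4) to 345 (without KO1) with 1 array left out. Of the family genes 4 were called, and 0 with the software's ratios, median centring or the red channel alone, with or without WT1 and KO1, or with sex as a term, and 1 to 4 with 1 array left out. Of the marker genes 26 were called, 15 with the software's ratios, 0 under median centring, 1 in the red channel alone, 12 in the red channel and 2 under median centring without WT1 and KO1, 5 with sex, and 13 to 24 with 1 array left out. The called neighbour, 1 gene, became 0 in those settings and without WT1 and KO1, and was 0 to 1 with 1 array left out. With a term for sex the KO arrays are compared with WT2 alone, since all KO samples were male. The cause of the other changes was not tested, apart from the smaller number of arrays where arrays were left out. Aquantile leaves log ratios as they are. The replicate block left the differences of the 6 genes as they are, and so could change no direction. Signal over background limits Tmem100 on KO1, with a red signal 2.48 times that of the negative controls.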
